A study of Sus scrofa with 4 samples.

Results

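Short circRNAs were taken as circular RNAs whose back-splice ends lay less than 2000 bases apart in the genome, and whose ends both lay inside a protein-coding gene or a lncRNA on the same strand, called the host gene. Of 8623 circRNAs listed in porcine subcutaneous preadipocytes, 1574 had such a span and 1502 of these also had a host gene. The rule used position only and no expression value. The 1502 short circRNAs came from 1242 host genes, and 6856 circRNAs with a host and a span of 2000 bases or more were set beside them.

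A circRNA is made when the spliceosome joins the end of an exon to the start of the same exon or of an exon upstream, which leaves a closed loop without a cap or a poly(A) tail. Such loops resist exonucleases, so they can outlast the linear transcript of the same gene, and they are detected by reads that cross the back-splice junction. Adipogenesis is driven by PPARG and the C/EBP factors, and a fibroblast-like preadipocyte turns into a lipid-storing adipocyte while actin fibers and the matrix are remodeled.

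The cells were cultured from the subcutaneous fat of 3 male Chinese Erhualian piglets, 5 days old, and were differentiated from confluence (D0) with dexamethasone, 3-isobutyl-1-methylxanthine and insulin for 2 d, followed by insulin for another 2 d and then by growth medium. D0 stands for the untreated confluent preadipocytes, D2 for cells at the end of the cocktail, D4 for cells at the end of insulin and D8 for cells on day 8. For each stage, equal amounts of RNA of the 3 piglets were pooled into 1 library, giving 4 libraries without replicates. Stage and library therefore cannot be told apart, no p-value was computed, and the counting intervals given below cover counting error only.

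Abundance was given as SRPBM, which counts the junction reads of a circle relative to all mapped reads in its library. The step between values, which is the worth of 1 junction read, was 6.42 SRPBM in D0, 7.27 in D2, 5.94 in D4 and 8.40 in D8, and 100% of the values were whole multiples of it. These steps correspond to between 119037090 (D8) and 168443434 (D4) mapped reads. The short circRNAs held 12722 junction reads (D0), 9512 (D2), 10184 (D4) and 8252 (D8). Where 4 values follow each other without a stage, the order is that of the days. D8 was thus the shallowest library, and a value of 0 there allowed up to 25.2 SRPBM (3 reads), compared with 19.3 at D0, 21.8 at D2 and 17.8 at D4. The labelled cell type fitted its markers. The FPKM summed over 8 adipocyte markers was 122 (D0), 484 (D2), 1715 (D4) and 2066 (D8), with LEP staying under 1. From D4 to D8 the sum was carried by FABP4 (853 to 1557) and CIDEC (5.01 to 54.6). ADIPOQ, PLIN1 (215 to 90.3), LPL, CEBPA (162 to 37.1) and PPARG (51.9 to 25.8) were lower at D8 than at D4. All 7 fibroblast or preadipocyte markers were present, with sums from 1130 to 3034. Of 4 endothelial and 4 immune markers, only PECAM1 and CD14 reached an FPKM of 1, with summed levels of 1.16 to 2.59 and 3.00 to 7.80, and CDH5, KDR, VWF and PTPRC were near 0. In bulk RNA, fewer cells of a type and less RNA per cell cannot be told apart.

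Of the junction reads of all circRNAs, the short ones took 23.9% at D0 (95% Wilson interval 23.55 to 24.27), 21.6% at D2 (21.24 to 22.01), 19.9% at D4 (19.6 to 20.29) and 22.0% at D8 (21.6 to 22.44). The share was highest at D0 and lowest at D4. In SRPBM, the short circRNAs summed to 81638 (D0), 69111 (D2), 60460 (D4) and 69323 (D8). A single circRNA, that of ACTA2, gave part of the D0 value, and the D0 sum without it was 79636. The libraries held similar numbers of short circRNAs, with 748 detected (D0), 673 (D2), 710 (D4) and 752 (D8).

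Most short circRNAs were rare. The median number of junction reads of a detected one was 8 (D0), 7 (D2), 7 (D4) and 5 (D8), and 800 of the 1502 (53.3%) were seen in a single library. Only 232 (15.4%) were seen in all 4 libraries, but they carried 64.5% of the junction reads. Among circRNAs of 2000 bases or more, 56.4% were seen in 1 library and 12.6% in all 4.

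The span of the short circRNAs had a median of 956 bases and ran from 136 to 1999. The 434 circRNAs of 500 to 1000 bases held 40.7% of the junction reads, and 20.7% of them were seen in all 4 libraries. The 72 circRNAs under 250 bases held 2.23% of the reads, and 5.56% of them were seen in all 4. Between these, the 277 circRNAs of 250 to 500 bases held 14.7% of the reads, whereas the 383 of 1000 to 1500 bases held 22.9% and the 336 of 1500 to 2000 bases held 19.5%. At the edge of the rule, the circRNAs of FBXO11 and RB1CC1, both with a span of 1999 bases, had 3 reads at D0 and 2 reads at D8, respectively, and none elsewhere. Just outside it, the circRNA of SETD5 (2002 bases) had 3 reads at D0, and that of TNPO1 (2005 bases) had 5 reads at D4.

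**Figure D1:**
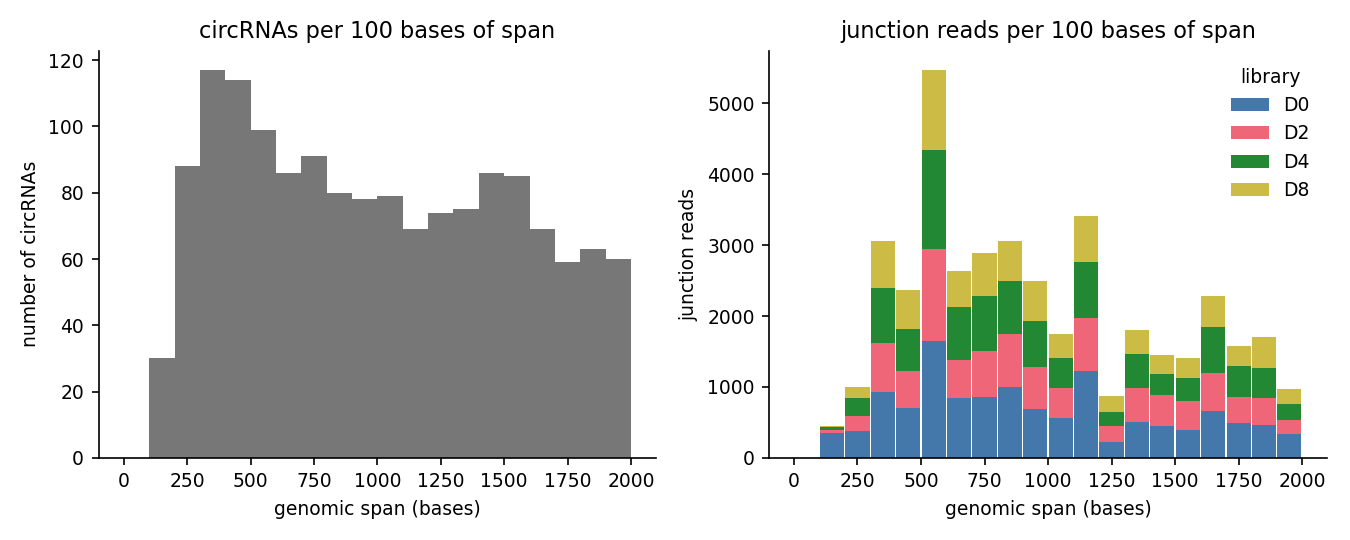
The left panel shows the number of short circRNAs per 100 bases of genomic span, and the right panel the junction reads they held, stacked by library (D0, D2, D4, D8). Circles under 250 bases were 72 in number and held 2.23% of the reads, and the tallest bar of reads, just above 500 bases, contains the circRNAs of XPO4 and GRIPAP1.

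The host genes of short circRNAs were shorter than those of longer circRNAs, with a median length of 63074 bases over the circRNAs, compared with 105335. A circle cannot span more than its host, and a host with several circles counts several times in these medians. What part these play in the difference was not tested. Of the 1242 hosts, 1047 (84.3%) gave a single short circRNA, 666 (53.6%) also gave a circRNA of 2000 bases or more, and 576 gave only short ones. In the 666 hosts with both kinds, 860 short circRNAs held 27851 junction reads and 2192 longer ones held 47097. The short ones of a host held more reads than its longer ones in 237 hosts (35.6%). Longer circRNAs were more numerous in these hosts, so the totals do not show which kind had more reads per circle. An end was shared with another circRNA by 37.7% of the short circRNAs and by 62.6% of the longer ones. When the host was divided into 5 parts of equal length from its 5′ end, the centers of the short circRNAs lay in these parts, in order, in 10.7%, 20.6%, 24.1%, 26.0% and 18.6%, whereas the longer ones lay there in 7.89%, 24.9%, 29.0%, 26.8% and 11.4%. Short circRNAs were thus more often placed in the last part of the host than longer ones. A longer circle cannot be centered close to an end of its host, and the part this plays was not tested. Exons, introns and UTRs at the ends of the circles were not analysed here.

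The most abundant short circRNA came from XPO4, which encodes a nuclear transport receptor. This circRNA (ssc_circ_0005283, chr11:1141224-1141776 of Sscrofa11.1, minus strand, 552 bases) had 3382 SRPBM (D0), 2645 (D2), 2962 (D4) and 2982 (D8), from 527, 364, 499 and 355 reads. The XPO4 mRNA had an FPKM of 6.46, 7.31, 8.07 and 5.13. XPO4 gave 9 other circRNAs, which held 197 reads in all.

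The second in rank came from GRIPAP1, a regulator of endosomal recycling, and lay at chrX:43052047-43052598 (minus strand, 551 bases). It had 2785 SRPBM (D0), 2674 (D2), 1627 (D4) and 1907 (D8). The level was lower at D4 and D8 than at D0 and D2, and D4 was 1.71-fold below D0 (95% exact counting interval 1.47 to 2.0).

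GLIS3, a zinc-finger transcription factor of the Krüppel-like class, gave the third (ssc_circ_0000488, chr1:217793463-217794582, plus strand, 1119 bases). Its level was 2509 SRPBM (D0), 1424 (D2), 1793 (D4) and 916 (D8). D8 was 2.74-fold below D0 (2.21 to 3.42), and the GLIS3 mRNA was 1.85-fold lower in the same comparison. The circRNA of ARHGEF40, a guanine nucleotide exchange factor, also was highest at D0, with 1566 SRPBM compared with 1264 at D2, 695 at D4 and 798 at D8. At D4 it was 2.25-fold below D0 (1.80 to 2.83).

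NR1H3 encodes LXRα, a nuclear receptor for oxysterols that controls lipid synthesis in fat and liver. Its circRNA (chr2:15322375-15323114, minus strand, 739 bases) was the only circRNA of this host and went the other way, with 764 SRPBM (D0), 1054 (D2), 1015 (D4) and 1184 (D8). All 3 later libraries were above D0, and D8 was 1.55-fold above it (1.21 to 2.0), which is under the 2-fold threshold used below. The NR1H3 mRNA had an FPKM of 13.7, 19.6, 27.7 and 21.1. The circRNA of HMGXB3 was 1.38-fold above D0 at D2 (1.10 to 1.74), with 924, 1279, 926 and 1134 SRPBM.

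SLC25A3, the mitochondrial phosphate carrier, gave a circRNA of 1482 SRPBM (D0), 1097 (D2), 980 (D4) and 1058 (D8). That of PRKAR1A, a regulatory subunit of protein kinase A, had 1437, 901, 944 and 966. In both, D0 was the highest library and the other 3 lay close together. LAMB1, described below with its host, ran from 773 to 1312 SRPBM, and the last 3 of the 12 most abundant, from PTGES3, ZCCHC6 and GNL3, stayed between 564 and 865 SRPBM. Together, the 12 held 20.2% to 23.8% of the junction reads of short circRNAs in each library, and none of them was at 0 anywhere.

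**Figure D2:**
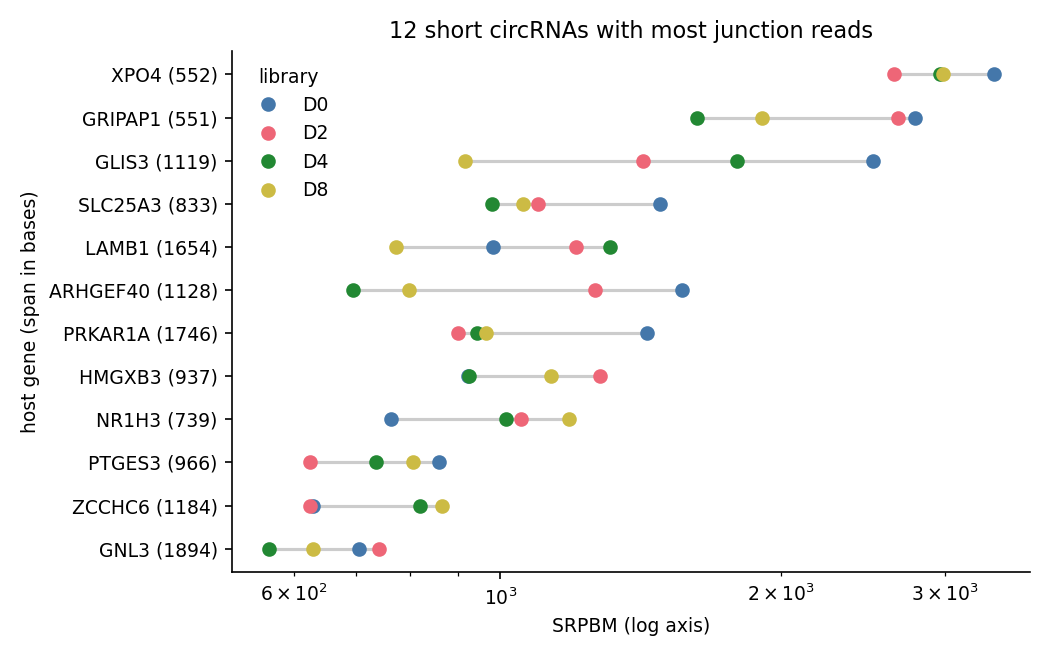
SRPBM (log axis) of the 12 short circRNAs with the most junction reads, 1 point per library, with the host gene and the span in bases on the vertical axis; grey lines join the lowest and highest library. XPO4 stayed between 2645 and 3382, GLIS3 ran from 916 to 2509, and NR1H3 was lowest at D0.

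The circRNA of ACTA2 stood apart from all others in being abundant in a single library. ACTA2 encodes smooth muscle α-actin, a part of the contractile fibers of myofibroblasts. Its circRNA (ssc_circ_0006731, chr14:100882995-100883147, minus strand) spanned 152 bases and had 312 reads at D0, or 2002 SRPBM, and was listed at 0 at D2, D4 and D8. With 0 set to 3 reads, D2 was 91.9-fold lower than D0 (lower exact limit 74.3). D8 was 79.4-fold lower than D0 in the same way (lower exact limit 64.2). The ACTA2 mRNA fell 8.97-fold from 2907 FPKM at D0 to 324 at D2, was 225 at D4 and was back at 2762 at D8. The circRNA and the mRNA thus went down together at D2, but at D8 the mRNA was 1.05-fold below D0 while the circRNA was not detected. Actin genes have near-identical coding sequences, and the values of this short circle are uncertain for that reason. Among the other short circRNAs seen in a single library, the most abundant had 29 reads at D0 (EEF2K), 22 at D2 (DSC2), 18 at D4 (ZCCHC6) and 21 at D8 (ROR1), and D0, D2, D4 and D8 had 225, 184, 177 and 214 such circRNAs.

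For comparisons between libraries, the 208 short circRNAs with at least 40 junction reads summed over the 4 libraries were used. They came from 198 hosts and held 67.4% of the reads of short circRNAs. Among longer circRNAs, 726 passed the same filter, and 955 passed among all circRNAs. A value of 0 occurred in at least one library for 39 of the 208 (18.8%) and for 116 of the 726 (16.0%).

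Some of these zeros stood beside high values in every other library. Of the 208, 8 (3.85%) were of this kind, and so were 18 of the 726 longer circRNAs (2.48%), which were at 0 in 1 library while having at least 20 reads in each of the other 3. That of ZRANB1, a deubiquitinase, had 114 reads (D0), 0 (D2), 66 (D4) and 53 (D8). That of RPSA, a ribosomal protein and laminin receptor, had 0, 36, 87 and 52. The circRNA inside TGOLN2, which the files list as a lncRNA, had 0, 54, 59 and 41 reads. Of the 8, 5 were at 0 at D0, 2 at D2 and 1 at D4. The linear RNA of the host was present in the library without the circle: ZRANB1 had an FPKM of 8.40 at D2, RPSA 1901 at D0 and TGOLN2 9.89 at D0. RPSA and RPS10 have many processed copies in mammalian genomes, and their values are uncertain for that reason. Whether a circle at 0 was absent or was missed by the caller was not tested, and counts are given below with and without circRNAs at 0.

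**Figure D3:**
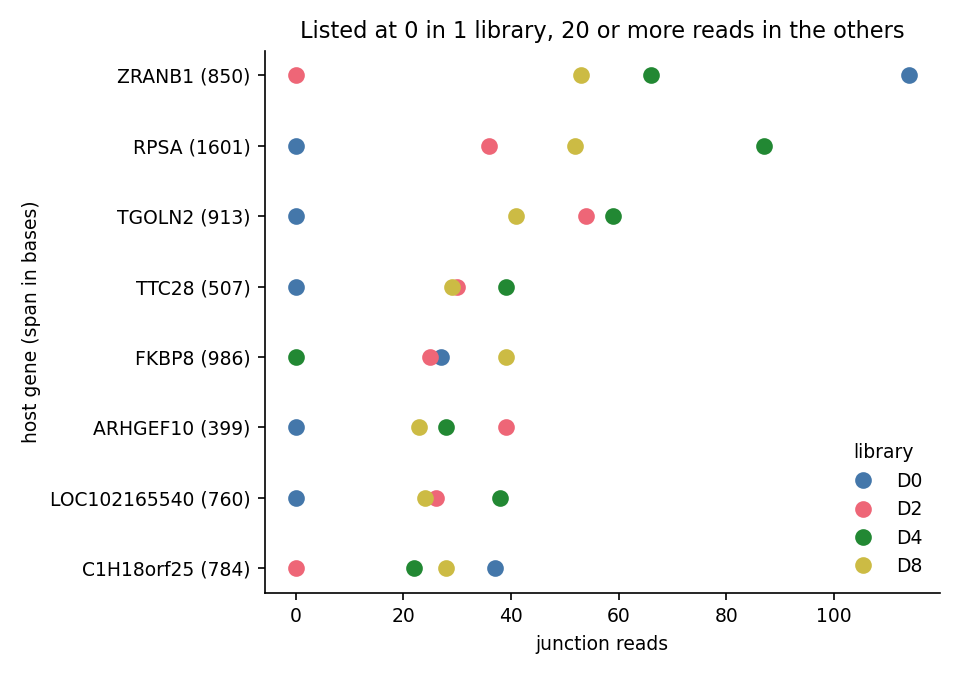
Junction reads of the 8 short circRNAs that were at 0 in 1 library and had 20 or more reads in each of the other 3, 1 point per library, with the host gene and the span in bases on the vertical axis. D0 was the empty library for RPSA, TGOLN2, TTC28, ARHGEF10 and LOC102165540, D2 for ZRANB1 and C1H18orf25, and D4 for FKBP8.

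In the 5 comparisons of the study design, a circRNA was counted as having risen or fallen when the SRPBM ratio was at least 2, with 0 set to the worth of 3 reads. The comparisons with D0 share the D0 library. In D2 vs D0, 35 of the 208 short circRNAs rose (16.8%, compared with 19.9% of all 955 circRNAs) and 51 fell (24.5%, compared with 20%). The median log2 ratio was −0.24, while that over all circRNAs was −0.04. Of the rises, 14 were from 0 at D0, and without circRNAs at 0 in either library 11.5% rose and 23.0% fell, compared with 16.3% and 17.5% of all circRNAs.

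The largest rises in D2 vs D0 among short circRNAs were those of TGOLN2, ARHGEF10 and RPSA, all from 0. With 0 set to 3 reads, TGOLN2 was 20.4-fold higher (lower exact limit 16.0). Among circRNAs seen in both libraries, that of DYNC2H1 was 8.68-fold higher (2.62 to 45.2), from 3 reads at D0. The RNASEH1 circRNA was 7.93-fold higher (1.82 to 71.9), from 2 reads at D0. That of SLC8A3, a sodium-calcium exchanger, was 7.55-fold higher (3.18 to 21.8), with 6 reads (D0), 40 (D2), 47 (D4) and 16 (D8). The PRPSAP2 circRNA, from a gene of the phosphoribosylpyrophosphate synthetase complex, was 3.34-fold higher (1.95 to 5.95), with 122, 407, 327 and 277 SRPBM. Besides ACTA2, the largest falls were those of ZRANB1 and C1H18orf25 to 0. The EIF4A3 circRNA, whose host encodes an RNA helicase of the exon junction complex, was 4.75-fold lower (2.21 to 11.7) and had 276 SRPBM (D0), 58.1 (D2), 65.3 (D4) and 50.4 (D8). The EIF4A3 mRNA was 1.31-fold lower at D2.

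In D4 vs D2, 27 short circRNAs rose (13.0%, all circRNAs 14.9%) and 48 fell (23.1%, all circRNAs 21.3%). The median log2 ratio was −0.21, compared with −0.14 over all circRNAs. With median-ratio size factors in place of mapped reads, which moved the latter up by 0.20, 35 rose and 30 fell. SNX6, a sorting nexin of the retromer, gave a circRNA that was at 0 at D0 and D2, and had 534 SRPBM at D4 (90 reads) and 269 at D8. With 0 set to 3 reads, it was 27.8-fold higher at D4 than at D0 (lower exact limit 22.1). The SNX6 mRNA was 1.31-fold lower in the same comparison. The circRNA of MYCBP2, an E3 ubiquitin ligase, had 0, 3, 35 and 12 reads and was 9.53-fold higher at D4 than at D2 (3.01 to 48.4). The largest falls were those of PRMT7, an arginine methyltransferase, with 17, 27, 3 and 8 reads, of FKBP8 and of BUD23, the last pair reaching 0 at D4.

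D8 vs D4 had the opposite balance, with 41 rises (19.7%, all circRNAs 17.7%) and 24 falls (11.5%, all circRNAs 17.5%), and a median log2 ratio of 0.15, compared with 0.05 over all circRNAs. FKBP8, USP24 and ZNF215 had the largest rises, each from 0 at D4. The ATL3 circRNA, from a shaping GTPase of the endoplasmic reticulum, fell 3.53-fold (1.18 to 14.2) and had 269, 269, 119 and 33.6 SRPBM, going down from D2 on.

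In D4 vs D0, 31 rose (14.9%, all circRNAs 18.6%) and 60 fell (28.8%, all circRNAs 25.7%), and the median log2 ratio was −0.47, compared with −0.18 over all circRNAs. Of the 31 rises, 16 were from 0 at D0, and without circRNAs at 0 in either library 8.15% rose (all circRNAs 14.5%). Under other scalings, the median over all circRNAs moved up by 0.17 (scaled to the total of junction reads) or 0.20 (size factors). In D8 vs D0, 38 rose (18.3%, all circRNAs 18.4%) and 51 fell (24.5%, all circRNAs 22.6%), with medians of −0.17 and −0.11, and under either other scaling 45 rose and 45 fell. There, the median over all circRNAs moved up by 0.12 or 0.14. Without circRNAs at 0, 12% rose in D8 vs D0 (all circRNAs 14.6%). The SLC16A10 circRNA had 39, 7, 2 and 11 reads and was 21.1-fold lower at D4 than at D0 (5.46 to 180). That of ULK2, a kinase that starts autophagy, had 2, 7, 26 and 11 reads and was 12-fold higher at D4 (3.01 to 105).

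The percent of short circRNAs and that of all circRNAs lay furthest apart in the falls in D8 vs D4 (11.5% and 17.5%) and, without circRNAs at 0, in the rises in D4 vs D0 (8.15% and 14.5%). With 1 library per stage these differences were not tested, and nothing particular to short circRNAs is read from them. By the highest of the 4 SRPBM values, 38.9% of the 208 had their peak at D0, compared with 32.6% of all 955, and 14.4% at D4, compared with 20.1%.

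**Figure D4:**
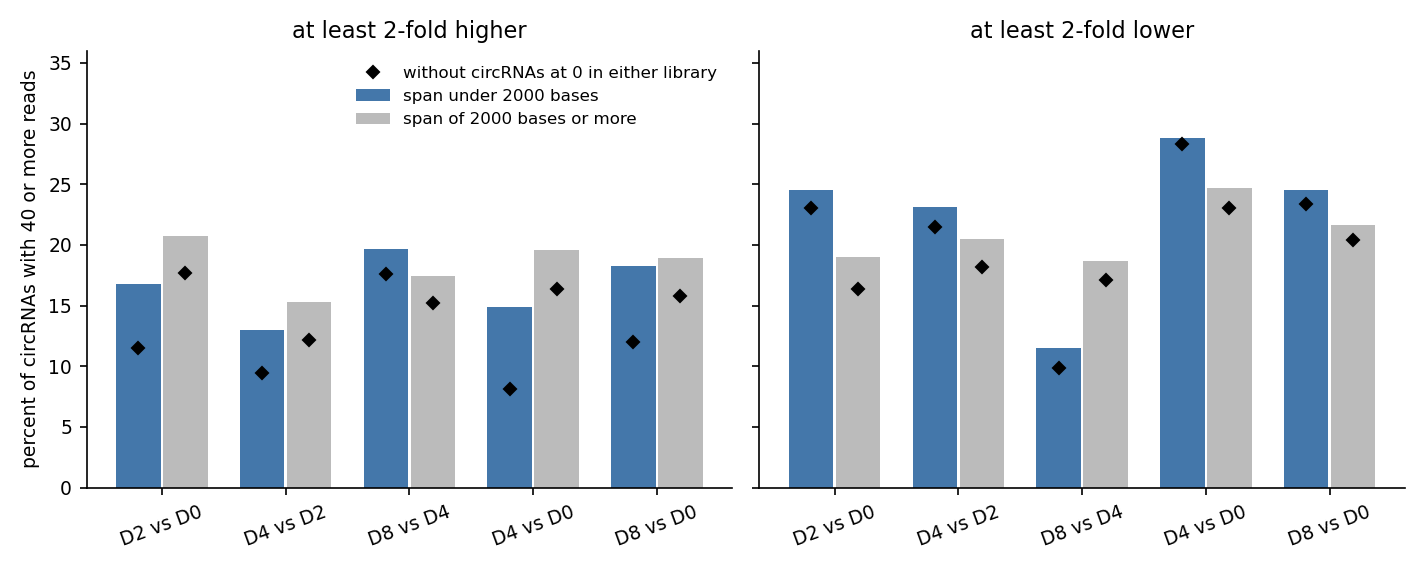
Percent of circRNAs with 40 or more junction reads that were at least 2-fold higher (left) or lower (right) in each comparison, for 208 short circRNAs (blue bars) and 726 of 2000 bases or more (grey bars), with black diamonds for the percent when circRNAs at 0 in either library are left out. Among short circRNAs, falls outnumbered rises in every comparison except D8 vs D4 (11.5% and 19.7%), but not with size factors in D4 vs D2 (14.4% and 16.8%), and in D8 vs D0 neither under both other scalings (21.6% each) nor without a filter on reads (20.1% and 20.5%).

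Of the 208, 22 (10.6%, all circRNAs 9.21%) were at least 2-fold higher than D0 in all 3 later libraries and 13 (6.25%, all circRNAs 5.45%) were lower in all 3. Of the 22, 14 were at 0 at D0. The others had reads at D0, as in PRPSAP2 and SLC8A3 above, in SLTM with 96.3, 240, 273 and 277 SRPBM and in DYNC2H1, a dynein heavy chain of cilia, with 19.3, 167, 208 and 118 SRPBM. The 13 lower ones were ACTA2, GARS, EIF4A3, SLC16A10, FGFR1, PSMC6, CCT6A, RBCK1, ZBTB44, CSNK1G2, TDRD3, CEP164 and one of the 2 FKBP8 circles. Among these hosts, GARS charges tRNA with glycine, CCT6A is a subunit of the chaperonin TRiC, and PSMC6 is an ATPase of the proteasome. The GARS circRNA had 295 SRPBM (D0), 145 (D2), 137 (D4) and 101 (D8), while its mRNA had an FPKM of 198, 105, 64.6 and 120. For CCT6A, the circRNA had 205, 43.6, 47.5 and 58.8 SRPBM, and for PSMC6 it had 193, 43.6, 53.4 and 84.0. In 49 of the 208 (23.6%, all circRNAs 22.7%), no ratio of the 5 reached 2.

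The change of each circRNA was next set beside that of the linear RNA of its host, for 194 of the 208 whose hosts had a mean FPKM of at least 1. Of the short circRNAs that rose or fell, the host moved in the same direction in 41 of 79 in D2 vs D0 (51.9%), 34 of 67 in D4 vs D2 (50.7%), 24 of 59 in D8 vs D4 (40.7%), 53 of 84 in D4 vs D0 (63.1%) and 52 of 80 in D8 vs D0 (65.0%). For longer circRNAs, the corresponding shares were 63.6%, 50.8%, 57.3%, 63.6% and 67.0%. The median of the circRNA change minus the host change was −0.03, −0.24, 0.34, −0.23 and 0.06 on the log2 scale. Across the 194 circRNAs, whose changes come from the same pair of libraries, the Pearson coefficient between circRNA and host change was between 0.03 (D8 vs D4) and 0.25 (D8 vs D0), as a description only.

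In 5 cases in D2 vs D0, 4 in D8 vs D4 and 5 in D4 vs D0, circle and host both passed 2-fold and in opposite directions. In the same comparisons, both passed 2-fold in the same direction in 5, 6 and 10 cases. The short circRNAs whose host passed 2-fold numbered 27, 28 and 34 of the 194. Such counts were not made for longer circRNAs, and no excess of opposite cases is read from them. Without circles at 0 in either library, 3, 1 and 2 opposite cases were left. By FPKM, 7.01% of the 9570 mRNAs with a mean of at least 1 rose and 10.8% fell in D2 vs D0. In D4 vs D0, 10.9% rose and 9.39% fell, and in D8 vs D4, 5.13% rose and 10.1% fell.

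FGFR1, a fibroblast growth factor receptor, showed the widest such gap in D4 vs D0. Its circRNA (chr15:48094739-48096210, plus strand, 1471 bases) had 295 SRPBM (D0), 36.3 (D2), 0 (D4) and 58.8 (D8), whereas the mRNA had an FPKM of 7.28, 14.0, 23.1 and 6.28. With 0 set to 3 reads, the circRNA was thus 16.6-fold lower at D4 than at D0 (lower exact limit 12.9). The mRNA was 3.14-fold higher in the same comparison. LRP6, a Wnt co-receptor, gave a circRNA of 393 bases (chr5:60168451-60168844, plus strand) that had 841, 378, 410 and 546 SRPBM. It was lower in all 3 later libraries, and 2.23-fold lower at D2 (1.60 to 3.13), whereas the LRP6 mRNA was 2.19-fold higher at D2 and 2.55-fold higher at D4.

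The reverse was seen in D2 vs D0 for one circle of KCTD9, which rose from 0, while the other KCTD9 circle had 47 reads at D0 and 23 at D2 and was lower, as was the mRNA. It was also seen for SAMD4A, an RNA-binding protein. The SAMD4A circRNA had 70.6, 225, 59.4 and 143 SRPBM and was 3.19-fold higher at D2 (1.56 to 7.04), while the mRNA was 4.41-fold lower. Also in D2 vs D0, the circRNA of ECH1, an enzyme of fatty acid breakdown, had 15 reads at D0 and 2 at D2, while its mRNA was 2.75-fold higher.

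Of the 34 short circRNAs whose host passed 2-fold in D4 vs D0, 10 moved at least 2-fold with it and 5 moved at least 2-fold against it. LAMB1, a laminin chain of basement membranes, had an mRNA of 65.5, 261, 265 and 86.1 FPKM, which is 4.05-fold higher at D4 than at D0, but the circRNA had 982, 1206, 1312 and 773 SRPBM and was 1.34-fold higher (1.08 to 1.65). The mRNA of THBS1, a matrix glycoprotein, was 8.83-fold lower at D2, and its more abundant circRNA was 1.72-fold lower, with an interval (0.95 to 3.22) that included 1. In PIK3R1, the regulatory subunit of PI3-kinase, the mRNA was 4.94-fold higher at D4 and the circRNA 1.03-fold higher (0.51 to 2.12).

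Circle and host moved together in 10 cases in D4 vs D0, 6 in D8 vs D4, 5 in D2 vs D0 and 3 in D8 vs D0, in which both passed 2-fold. ZBTB16 (PLZF), a transcription factor that is induced by glucocorticoids, had 0, 10, 16 and 21 circRNA reads, and its mRNA had an FPKM of 0.20 (D0), 4.60 (D2), 6.86 (D4) and 2.59 (D8). The circRNA was highest at D8 and the mRNA at D4. With 0 set to 3 reads, the circRNA was 9.16-fold higher at D8 than at D0 (lower 95% exact limit 6.82).

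**Figure D5:**
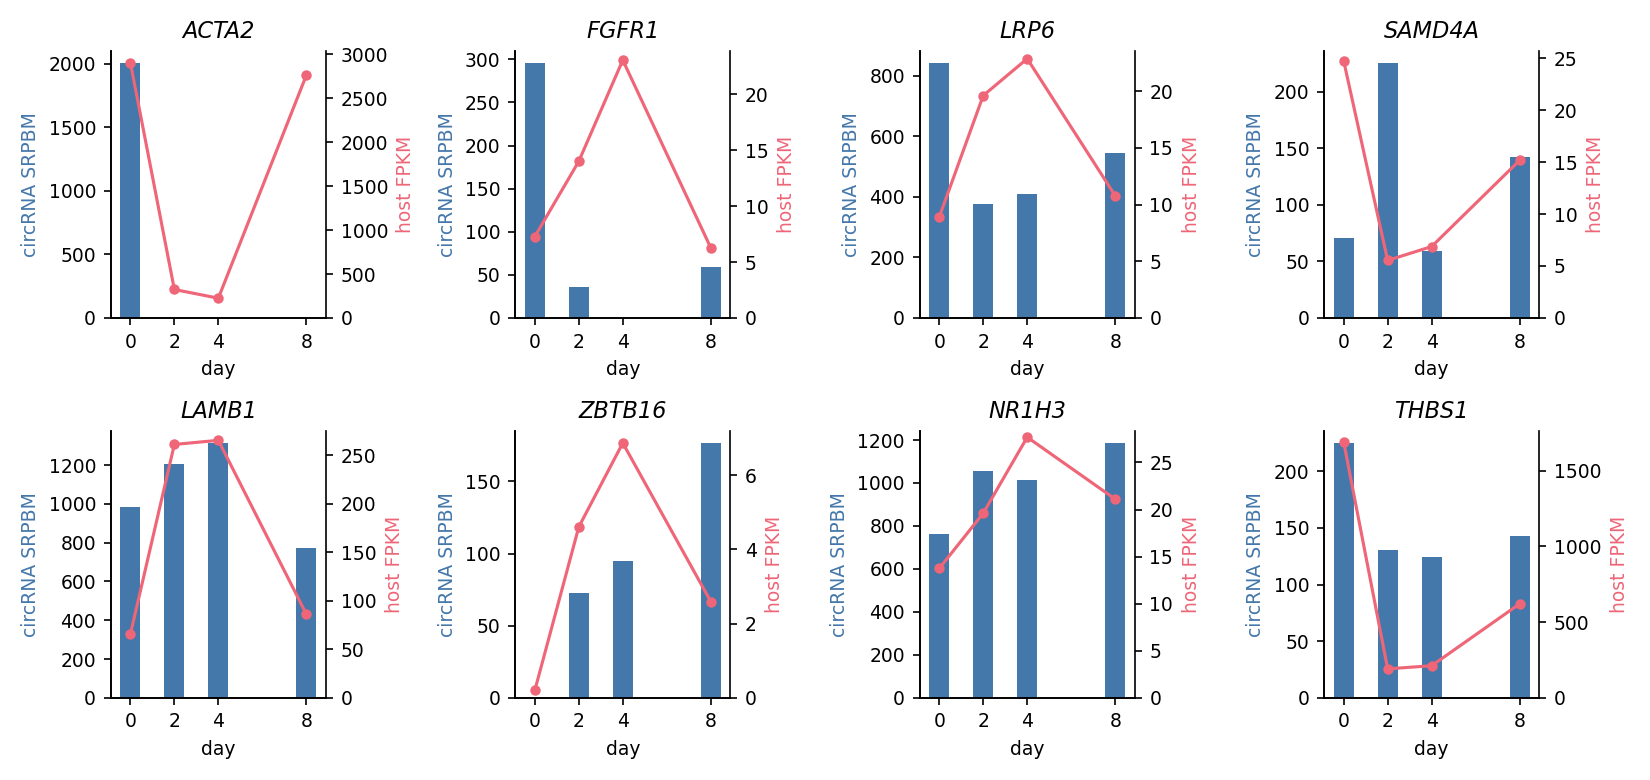
SRPBM of the most abundant short circRNA (blue bars, left axis) and FPKM of the host mRNA (red points and line, right axis) by day for 8 hosts, 1 library per day; the 2 axes have different units and scales. In FGFR1 and LRP6 the mRNA peaks at D4 while the circRNA is below D0, and in ACTA2 the mRNA returns to 2762 at D8 while the circRNA stays at 0.

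Host genes were examined in 7 lists, all written with earlier results of these data known. The list of chromatin modifiers had 55 short circRNAs from 36 hosts, of which 11 had 40 reads. In D2 vs D0, 6 of the 11 fell and none rose (1 rose when scaled to the total of junction reads), beside 24.5% falls and 16.8% rises over the 208, with a median log2 ratio of −1.10 compared with −0.24 over the 208. In D4 vs D2, 4 rose and 1 fell (median 0.71, compared with −0.21), and in D4 vs D0 none rose and 2 fell, or 2 rose and 2 fell under either other scaling. Among the 6 were CREBBP, a histone acetyltransferase with 19, 3, 20 and 14 reads, CDYL, a reader of histone methylation with 73, 30, 50 and 31, CHD9 with 13, 5, 17 and 15, CHD6 with 13, 0, 20 and 7, and one of the 2 circles of the deacetylase HDAC2 with 18, 5, 19 and 3. Those named were chosen as lower at D2 than at D0, the 2 comparisons share the D2 library, and all but CDYL had fewer than 20 reads at D0. The median host change of the list in D2 vs D0 was 0.00 on the log2 scale.

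The list of hosts known to give circRNAs in several mammals had 19 short circRNAs, 6 of them with 40 reads. In D2 vs D0, 3 fell (CDYL, ZNF609 and CREBBP) and none rose, beside 24.5% falls and 16.8% rises over the 208. HIPK3, a kinase gene known for an abundant single-exon circle in other species, had 193, 138, 83.1 and 50.4 SRPBM, going down at each stage, with D8 3.82-fold below D0 (1.56 to 11.2), while its mRNA was 1.03-fold higher. ZNF609 had 25, 7, 15 and 9 reads and FBXW7, a substrate receptor of an SCF ubiquitin ligase, had 327, 501, 255 and 370 SRPBM. Whether these are the circles known elsewhere was not analysed here.

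The list on lipid metabolism and adipogenesis had 22 short circRNAs, 5 of them with 40 reads, among them IGF1R, LRP6 and PIK3R1. In D2 vs D0, 1 rose and 2 fell (1 fell when scaled to the total of junction reads), beside 16.8% rises and 24.5% falls over the 208, and the median was −0.45, compared with −0.24 over the 208, while the median host change was 1.13. IGF1R, the receptor of IGF-1, gave 712 SRPBM (D0), 334 (D2), 522 (D4) and 815 (D8), and was 2.13-fold lower at D2 (1.50 to 3.07). In D8 vs D0, none of the 5 passed 2-fold in either direction, although 1 rose under either other scaling. NR1H3 was not on this list.

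Among hosts for extracellular matrix, adhesion and actin, 48 short circRNAs were found and 7 had 40 reads. None of the 7 rose in any of the 5 comparisons under any of the 3 scalings, and at most 2 fell in any of them. Over the 208, 13.0% to 19.7% rose and 11.5% to 28.8% fell, and nothing is read from such counts among 7. FBLN2, an elastic-fiber protein, had 501, 545, 226 and 286 SRPBM, and ROCK1, a kinase of the actin cytoskeleton, had 263, 182, 59.4 and 109. Both were lower at D4 and D8 than at D0 and D2. ACTA2 was not among the 7.

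The ubiquitin list had 47 short circRNAs and 4 with 40 reads, which were FBXW7, USP24, MYCBP2 and ITCH, and the last 3 each had a zero in at least 1 library. In D4 vs D0, 2 rose and 1 fell, beside 14.9% rises and 28.8% falls over the 208. ZRANB1 was not on this list. The kinase list had 24 and 4, which were STK3, CSNK1G1, PRKD3 and HIPK3. None of these rose in D4 vs D0 or D8 vs D0, beside 14.9% and 18.3% rises over the 208. In the same comparisons 1 and 2 fell, beside 28.8% and 24.5% falls over the 208. ULK2, whose circRNA was at least 2-fold higher than D0 in all 3 later libraries, was not on the kinase list. That circRNA had 2 reads at D0, and its ratio of 3.96 in D2 vs D0 had an interval (0.75 to 39.1) that included 1. STK3 (MST2), a kinase of the Hippo pathway, had 417, 472, 267 and 143 SRPBM.

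The largest numbers of short circRNAs per host were 6 in COL1A2 and PSME4 and 5 in ASH1L, BDP1 and SMG1. COL1A2, a chain of type I collagen, was expressed at 1987 to 2907 FPKM. Its most abundant short circRNA had 6 reads (D0), 0 (D2), 7 (D4) and 5 (D8). The other 5 were seen in 1 library each with 2 to 6 reads. PSME4, a proteasome activator, had one circle with 18, 13, 5 and 4 reads and another with 15, 2, 4 and 8. In ASH1L, a histone methyltransferase, 1 circle of 520 bases held 66, 31, 23 and 48 reads.

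In 10 hosts there were 2 short circRNAs with at least 40 reads each, which share the same transcript level. The 2 circles moved in the same direction in 2 of 10 hosts in D2 vs D0, 3 in D4 vs D2 and 5 in each of the other comparisons. In GLIS3, the circle of 1119 bases had 391, 196, 302 and 109 reads and the circle of 486 bases had 22, 25, 27 and 20, so that the former was lower at D8 and the latter was not. KCTD9 gave 0, 27, 12 and 27 reads from one circle and 47, 23, 36 and 18 from the other. In SEC24B, a coat protein of COPII vesicles, one circle had 37, 15, 14 and 31 reads and the other 12, 22, 29 and 13, so that the former was higher at D0 and D8 and the latter at D2 and D4.

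In all, 8 pairs of circles differed by at most 20 bases at their ends. In GRIPAP1, a circle starting 4 bases away at chrX:43052043-43052598 had 4, 13, 9 and 0 reads, compared with 434, 368, 274 and 227 for the main one, which held 96.6% to 100% of the pair. In FKBP8, an immunophilin of mitochondria, 2 circles that start 3 bases apart (chr2:59261730-59262716 and chr2:59261733-59262716) had 27, 25, 0 and 39 reads and 23, 7, 4 and 7 reads. Both FKBP8 circles were lowest at D4, but their mRNA was steady at 64.2 to 68.8 FPKM.

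Genes that act in the formation and turnover of circRNAs were also followed as mRNAs. Of 36 genes on this list, 32 had a mean FPKM of at least 1. In D2 vs D0, 22 were lower and 10 higher (52% of all mRNAs were lower), and 2 fell at least 2-fold (7.01% of all mRNAs rose and 10.8% fell), namely DDX39A, a helicase of mRNA export, with an FPKM of 60.7, 23.8, 29.7 and 43.7, and MBNL1, a splicing factor that promotes circle formation, with 52.7, 22.9, 27.8 and 35.8. QKI, which also promotes circle formation, had 25.6, 13.4, 14.1 and 19.4 and was 1.90-fold lower at D2. In D4 vs D2, 29 of the 32 were higher, as were 62.6% of all mRNAs, whose median log2 ratio was 0.09 (4.47% of them rose at least 2-fold and 1.02% fell). ADAR, an editing enzyme that opposes circle formation, had 2.82, 4.22, 6.08 and 3.89 and was 2.12-fold higher at D4 than at D0. None of the 32 passed 2-fold in D8 vs D4 or D8 vs D0, in which 24 and 27 were lower, as were 64.6% and 68% of all mRNAs, with medians of −0.21 and −0.18 (in D8 vs D0, 3.86% of mRNAs rose at least 2-fold and 3.79% fell). These levels moved beside the circRNA values above, and their part in them was not tested. Of the 15 short circRNAs from hosts on this list, 2 had 40 reads, EIF4A3 and TNRC6A, and the latter, from a gene of miRNA silencing, had 17, 6, 23 and 18 reads.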

How the data were processed

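The authors made rRNA-depleted, strand-specific libraries and aligned the reads with HISAT2 2.0.5, and deposited FPKM for 22944 linear genes. To find circRNAs, BWA-MEM and CIRI were used with at least 2 junction reads, and SRPBM was deposited in the same column. Positions are those of Sscrofa11.1, and 20259 genes were matched to RefSeq by symbol, start and end to name chromosomes.

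Junction reads were recovered as SRPBM divided by the step of each library (tolerance 0.01). A ratio of at least 2 counted as a change in circRNAs with at least 40 reads over the 4 libraries, with 0 set to 3 reads. Host changes used log2(FPKM + 0.1), which understates changes of low genes, with a mean FPKM of at least 1. The DEGseq test of the study methods takes counting error as the only error and was not used. Ratios have 95% exact (Clopper-Pearson) intervals from the reads of both libraries. Wilson intervals were used for shares of reads and as the yardstick for recomputed percentages. The rule for ratios and 2-fold calls was tried on simulated counts, whereas host matching, intervals and lists were not. Python 3.11.15, numpy 2.4.6, pandas 2.3.3, scipy 1.17.1 and matplotlib 3.10.9 were used.

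Named circRNAs were the 12 with most reads, the 3 largest rises and falls per comparison, the 5 hosts with most circles, up to 4 per list, those on either side of the span limit, and biogenesis genes with a ratio of at least 2. Others (circles opposite to or beside their host, at 0 in 1 library, steady in direction from D0, paired in 1 host or unlike their host) were chosen after their values were seen. The members and the 7 lists were chosen with earlier results of these data known. Exons, splice signals and sequences were not analysed here. Some genes that the naming rule selects are not reported here.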

Additional observations from a re-analysis of the deposited data

How the results depend on the processing

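Of 100 percentages recomputed under 10 alternatives, 89 stayed inside the 95% binomial interval of the reported value and 11 moved outside it. This interval, like that of the medians below, treats circRNAs of the same libraries as independent. The alternatives also share circRNAs with the reported value. The intervals thus serve only as a yardstick for the size of a move and do not cover variation between libraries. The filters left 413 circRNAs at 20 reads and 86 at 80 reads. With at least 80 reads, the percent that fell was 16.3 in D2 vs D0, 14.0 in D4 vs D2, 4.65 in D8 vs D4 and 16.3 in D8 vs D0, and the percent that rose was 6.98 in D4 vs D2 and 11.6 in D8 vs D4. With size factors, 14.4% fell in D4 vs D2. Without a filter, 26.7% rose in D8 vs D4, and in D8 vs D0 rises (229) outnumbered falls (225). Without circRNAs at 0 in either library, an alternative chosen after seeing the data, 11.5% rose in D2 vs D0, 8.15% in D4 vs D0 and 12% in D8 vs D0. The cause was not tested. The 30 recomputed medians of circRNA change minus host change stayed inside the 95% interval of the reported median, but in D2 vs D0, where that was −0.03, it was 0.06 scaled to the total of junction reads and 0.08 with at least 80 reads, and in D4 vs D0 the former scaling gave −0.06. No paired analysis was possible because each stage has 1 pooled library, and for the same reason no replicate could be left out. A value of 0 allowed up to 25.2 SRPBM at D8 and 17.8 at D4.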
